A study of Mus musculus with 12 samples.

Results

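A set of 46 genes of DNA replication and cell division was followed in macrophages sorted from the bone marrow of mice with and without bone metastasis. The members were chosen by symbol from their function, with earlier results of these data known, and they are 46 of the 18467 gene rows of the deposited count table. All 46 passed the filter on low counts, which left 12882 genes for testing. By function, 19 were placed in an S phase set, which includes origin licensing and G1/S genes, and 24 in a G2/M set. The G2/M set includes Ccna2, which acts in S phase too. The regulators Foxm1, Mybl2 and Ezh2 were kept apart from both. The study sequenced bulk RNA of 12 libraries, 3 for each of 4 groups, and each group's replicates came from different mice. In the metastatic groups, E0771 mouse breast cancer cells had been injected into the caudal artery of female Albino B6 mice aged 8 weeks, and the normal groups were healthy control mice. The sample labels give the age of 8 weeks for all 12 libraries, normal and metastatic. From each kind of marrow, general macrophages were sorted as CD11b+F4/80+ cells and niche macrophages as VCAM1+CD163+CCR3+ cells. The sample titles use the word general for both sorts, so the sorting antigens were taken to define the population, and the 3 libraries of niche macrophages from normal marrow are called A, B and C.

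A dividing cell first loads the MCM helicase onto replication origins, then copies its DNA in S phase with an enlarged supply of deoxynucleotides, and finally builds a spindle and separates its chromosomes in M phase. Transcription follows the same order: E2F factors drive many S phase genes, and the MuvB complex with B-Myb (Mybl2) and then FoxM1 drives many G2/M genes, often through a CCAAT box and a cell cycle homology region (CHR). Most mature macrophages divide little, whereas granulocyte, erythroid and other progenitors in marrow divide often.

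The promoters of the 2 most abundant members of each set that had an entry in the RefSeq promoter table are shown because the S and G2/M sets differ in how often they hold the letters searched. They were taken by abundance and not for their matches. The bases run 5′ to 3′ on the gene's strand up to the annotated start or first exon, in build GRCm38.p6, and capitals mark the searched letters on either strand.
Rrm1, chr7:102441445-102441694, plus strand: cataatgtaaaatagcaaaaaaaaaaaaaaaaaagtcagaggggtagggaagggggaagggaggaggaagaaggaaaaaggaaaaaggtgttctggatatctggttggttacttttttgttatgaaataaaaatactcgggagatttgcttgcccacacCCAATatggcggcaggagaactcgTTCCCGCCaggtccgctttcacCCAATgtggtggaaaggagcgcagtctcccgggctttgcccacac
Rrm2, chr12:24708004-24708240, plus strand: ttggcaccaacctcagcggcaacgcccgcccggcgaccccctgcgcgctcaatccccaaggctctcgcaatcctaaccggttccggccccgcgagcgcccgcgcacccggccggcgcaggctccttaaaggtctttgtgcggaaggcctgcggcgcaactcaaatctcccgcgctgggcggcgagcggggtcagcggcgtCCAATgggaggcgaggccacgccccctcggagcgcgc
Mki67, chr7:135716380-135716629, minus strand: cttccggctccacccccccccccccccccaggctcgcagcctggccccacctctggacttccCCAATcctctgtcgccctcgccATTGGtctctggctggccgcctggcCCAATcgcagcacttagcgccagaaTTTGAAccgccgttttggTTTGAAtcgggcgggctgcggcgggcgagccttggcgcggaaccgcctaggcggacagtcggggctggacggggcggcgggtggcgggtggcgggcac
Top2a, chr11:99024190-99024439, minus strand: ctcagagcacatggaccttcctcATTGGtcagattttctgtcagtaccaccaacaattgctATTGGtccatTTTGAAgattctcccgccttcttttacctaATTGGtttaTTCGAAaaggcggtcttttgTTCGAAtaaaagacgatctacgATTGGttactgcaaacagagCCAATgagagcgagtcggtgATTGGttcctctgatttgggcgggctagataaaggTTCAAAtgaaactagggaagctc
Capitals in Rrm1 mark CCAAT and TTCCCGCC, the reverse complement of GGCGGGAA, and in Rrm2 they mark CCAAT alone. In Mki67 and Top2a they mark CCAAT or its reverse complement ATTGG together with the CHR letters TTTGAA or TTCGAA, and TTCAAA in Top2a is TTTGAA on the other strand.

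Of the 46 members, 38 had an entry in that table, 16 of the S set, 20 of the G2/M set and 2 regulators. Each window of 300 bases runs from 250 bases before the start to 50 after it. The CHR letters (TTTGAA or TTCGAA, either strand) were found in 16 of 20 G2/M genes (80.0%), in 3 of 16 S genes (18.8%) and in 21.7% of the 27025 genes of the table. E2F-type letters (TTTCCCGC, TTTGGCGC or GGCGGGAA, either strand, where matches may overlap) were found in 8 of 16 S genes (50.0%), in 0 of 20 G2/M genes and in 3.69% of all genes. CCAAT on either strand was present in 18 of 20 G2/M genes (90.0%), in 9 of 16 S genes (56.2%) and in 41.1% of all genes. These counts describe letters in the window and not binding of a factor.

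**Figure D1:**
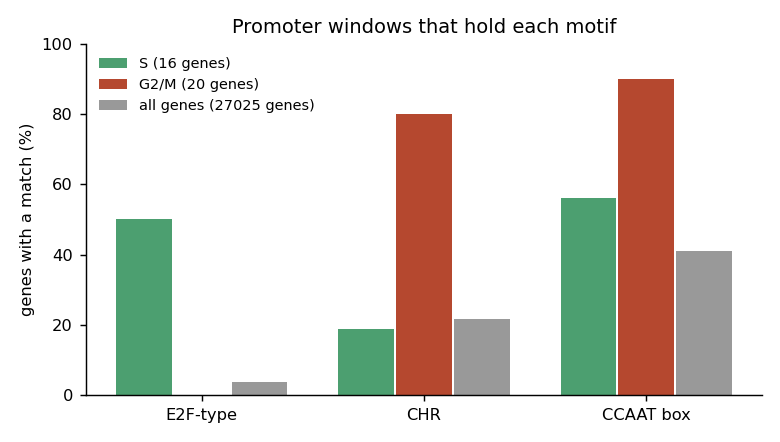
Share of genes (%, vertical axis) whose promoter window holds E2F-type letters, CHR letters or a CCAAT box, for the S genes, the G2/M genes and all genes with an entry. CHR letters stand at 80.0% in the G2/M genes against 21.7% of all genes, and E2F-type letters at 50.0% in the S genes against 3.69%.

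Library totals were 24278100 to 30332400 expected counts in general metastatic libraries, above those of all other libraries (13688000 to 21579500). The antigens used for sorting were found in the RNA: Vcam1 lay between 2090 and 2250 CPM (counts scaled to the size of each library) in niche normal, between 938 and 1620 CPM in niche metastatic and between 47.6 and 92.5 CPM in general libraries. Cd163 lay between 297 and 941 CPM in niche and between 1.96 and 28.0 CPM in general libraries. Adgre1, which encodes F4/80, was present in every library, between 64.0 and 145 CPM in general and between 144 and 589 CPM in niche macrophages. The summed CPM of 10 granulocyte precursor markers was 13600 to 14000 in general normal, 9090 to 17000 in general metastatic, 6940 to 8850 in niche normal and 8140 to 9570 in niche metastatic libraries. It was above the summed CPM of 10 macrophage markers in every group (264 to 355, 178 to 326, 1510 to 2290 and 677 to 1340 in the same order). Of 6 epithelial markers 3 had a row: Krt8 was at or under 3 counts in every library, Epcam reached 26.1 and 7.01 CPM in niche normal libraries A and B, and Cdh1 reached 33.7 CPM in niche metastatic replicate 1. In bulk RNA, fewer cycling cells and less RNA per cycling cell cannot be told apart.

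Cell cycle transcripts were abundant in all 4 groups, and the balance of S to G2/M transcripts separated the sorts. The summed CPM of the 19 S genes was 1144, 1174 and 1092 in the general normal libraries and 1832, 1881 and 1552 in the general metastatic libraries. It was 1288, 1241 and 1417 in niche normal libraries A, B and C and 1332, 2242 and 1756 in the niche metastatic libraries. The S sum was thus higher in every general metastatic library than in any general normal library, whereas the niche groups overlapped.

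For the 24 G2/M genes the sum was 3752, 3271 and 3546 CPM in general normal and 5368, 5415 and 5421 CPM in general metastatic libraries. In niche macrophages it was 2778, 2801 and 3047 CPM in normal and 3190, 3783 and 3159 CPM in metastatic marrow. The general metastatic libraries were the highest of all 12, and the niche normal libraries the lowest. The ratio of the S sum to the G2/M sum was 0.305 to 0.359 in general normal, 0.286 to 0.347 in general metastatic, 0.443 to 0.465 in niche normal and 0.418 to 0.593 in niche metastatic libraries. All 6 niche libraries lay above all 6 general ones, and in each sort the normal and metastatic ranges overlapped. No test was run on the sums or their ratio, since the members were chosen with results of these data known. The 4 most abundant members gave 66.6% of the S sum and 58.2% of the G2/M sum, so the sums mostly follow Rrm1, Rrm2, Pcna and Mcm5, and Mki67, Ccna2, Top2a and Kif11. The sum of 8 monocyte markers was also lower in niche than in general libraries (928 to 1530 against 3410 to 4410 CPM) and that of the erythroid markers higher (750 to 2050 against 88.0 to 309 CPM). The sums of B and plasma cell markers (404 to 1380 against 18.7 to 63.8 CPM) and of stem and progenitor markers (186 to 385 against 80.6 to 147 CPM) also separated all niche from all general libraries. Of 10 granulocyte precursor markers, 7 had a log2 fold change (niche minus general) below 0 and 3 above 0 in normal and in metastatic marrow (medians -0.46 and -0.03). In normal marrow 2 were called and in metastatic marrow 1, all lower, against 2.47% and 0.831% of all genes. Camp was lower in niche libraries (303 to 532 against 950 to 1240 CPM), while Mpo overlapped (528 to 1330 against 436 to 691 CPM). The part of these markers in the ratio was not tested.

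**Figure D2:**
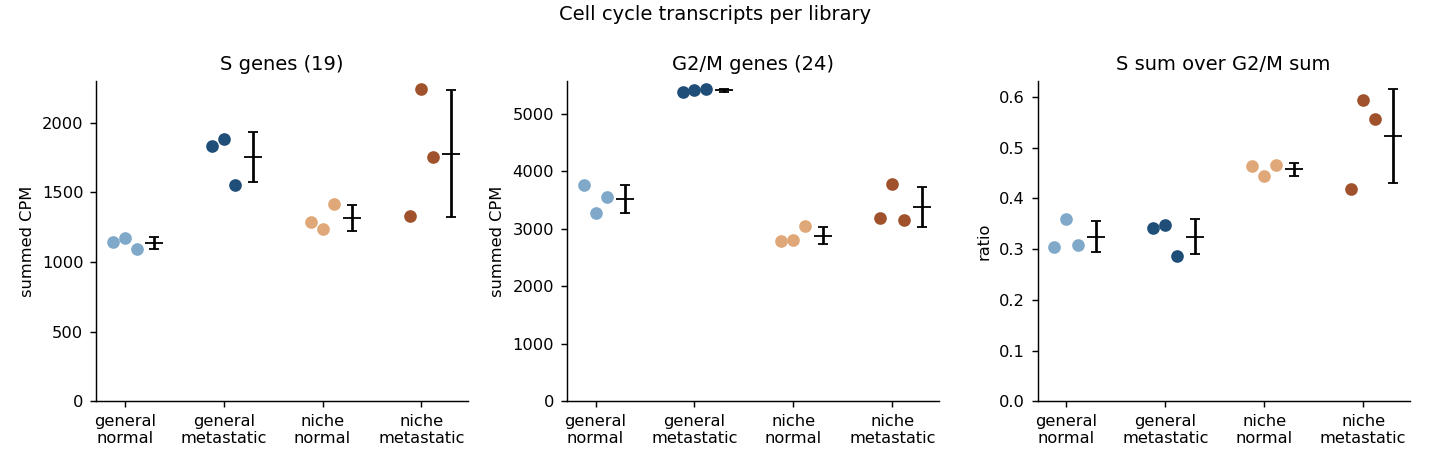
Summed CPM of the 19 S genes, summed CPM of the 24 G2/M genes and the ratio of both (vertical axes) in each of 12 libraries, with the mean and SD of each group of 3 beside the points. The G2/M sum is highest in general metastatic libraries (5368 to 5421), and the ratio of every niche library is above that of every general library.

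Per kilobase of exon, averaged over the 12 libraries, the highest level was that of Ccna2 (141 CPM per kb), followed by Rrm2 (99.3), Pcna (96.3), Mki67 (66.8) and Top2a (61.5). Of the 4083 exonic bases of Ccna2, 510 overlap Exosc9 on the other strand, so its level could include reads of that gene. The lowest were Cdc6 (1.77), Mybl2 (1.87) and Ccne1 (2.30 CPM per kb). The low members were uneven between replicates: 13 of 46 had at least 1 library at or under 3 counts, 8 of the S set, 4 of the G2/M set and Mybl2. Such values made up 16 of 138 in niche normal, 8 of 138 in general normal, 5 of 138 in niche metastatic and 2 of 138 in general metastatic libraries. Over all tested genes, the share at or under 3 counts was 24.4% to 33.1% in niche normal libraries, overlapping the 17.8% to 25.2% of general normal ones. It was 13.5% to 23.6% in niche metastatic and 8.47% to 19.2% in general metastatic libraries.

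With bone metastasis, cell cycle genes of general macrophages had higher levels almost throughout, but no single gene passed the test. The log2 fold change (metastatic minus normal) was above 0 for 17 of 19 S genes and 24 of 24 G2/M genes, against 49.4% of all tested genes, and with RLE scaling for 16 of 19 and 22 of 24. Its median was 0.57 for the S genes and 0.64 for the G2/M genes, beside -0.01 for all tested genes. At an adjusted p under 0.05 in edgeR's quasi-likelihood test, 0 of 46 members were called, as were 0.0155% of all genes. DESeq2 called 0 members too, and 1.09% of all genes. At an unadjusted p under 0.05 stood 8 members, all higher (8 of 46 against 5.12% of all genes). The 3 metastatic libraries lay above the 3 normal ones without overlap for 14 members (3 S, 10 G2/M and 1 regulator) and below them for 0, against 7.27% and 5.64% of all genes. The summed erythroid markers were higher in the metastatic general libraries (148 to 309 against 88.0 to 143 CPM), with 8 of 11 tested markers above 0. That separation rested on Tfrc, the transferrin receptor (139, 196 and 75.7 against 36.5, 53.2 and 71.9 CPM), and without it the sums overlapped (71.4 to 113 against 16.1 to 107 CPM). The summed B and plasma cell markers were lower without overlap (18.7 to 38.8 against 53.6 to 63.8 CPM), with 5 of 7 tested markers below 0 and a median log2 fold change of -1.24. Granulocyte precursor markers overlapped (9090 to 17000 against 13600 to 14000 CPM). None of the markers of these 3 lists was called, and their part in the members' values was not tested. The general metastatic libraries were also deeper than the general normal ones (24278100 to 30332400 against 15042000 to 20777200 expected counts). The part of depth in the members' values was not tested.

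In metastatic marrow, niche macrophages had lower G2/M transcripts than general macrophages, and S transcripts had a median difference near 0. The log2 fold change (niche minus general) was below 0 for 24 of 24 G2/M genes, or 23 of 24 with RLE scaling, DESeq2 or limma-voom, whereas 51.8% of all genes were above 0. Its median was -0.69. For the S genes, 8 of 19 were below 0, with a median of 0.02, beside 0.04 for all genes. That S median was -0.24 without niche metastatic replicate 2, -0.13 without general metastatic replicate 3 and 0.21 without niche metastatic replicate 1. The test called 0 of 46 members, against 0.831% of all genes. With DESeq2, 2 of 46 members, Kif23 and Ube2c, were called, against 3.73% of all genes, and with limma-voom 2 of 46, Top2a and Ube2c, against 1.38%. With counts this small, neither share sets the members apart. An unadjusted p under 0.05 was found for 8 members, all G2/M genes and all lower in niche macrophages, against 8.60% of all genes. The groups did not overlap for 11 of 24 G2/M genes and 1 S gene lower in niche macrophages, against 8.85% of all genes, and for 1 S gene, Cdc45, higher, against 8.34%.

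In normal marrow, E2f1 was the 1 member called between niche and general macrophages, and few others stood apart. The median log2 fold change (niche minus general) was 0.28 for the S genes, -0.28 for the G2/M genes and 0.19 for all tested genes. It was above 0 for 12 of 19 S genes and 7 of 24 G2/M genes, or 9 and 6 with limma-voom, against 56.0% of all genes. Of the members, 1 of 46 was called, against 2.47% of all genes, and 6 of 46 had an unadjusted p under 0.05, all lower in niche macrophages, against 19.0% of all genes. Neither share exceeded that of all genes. Niche and general libraries did not overlap for 4 of 46 members, against 18.8% of all genes: E2f1, Mki67 and Top2a were lower in niche macrophages and Mcm7 higher, as were 1131 and 1291 of all 12882 genes. Mcm7, a helicase subunit, was at 99.7, 29.3 and 52.0 CPM in niche normal and 15.5, 15.4 and 13.3 CPM in general normal libraries (log2 fold change 2.03 ± 1.19, adjusted p = 0.353). DESeq2 called 4 of 46 members, Cdc45, E2f1, Mki67 and Mybl2, against 14.2% of all genes. The G2/M median moved to 0.02 without niche normal library B, and the S median to -0.10 without library A, so the gap between both sets in normal marrow rests on single libraries; it was 0.56 with all libraries and 0.06 without library A. In metastatic marrow the gap was 0.71, and 0.44 to 0.84 with 1 library left out.

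Within niche macrophages, metastatic and normal marrow gave log2 fold changes of both signs among the members, and no member passed. The median log2 fold change (metastatic minus normal) was 0.31 for the S genes (12 of 19 above 0) and 0.17 for the G2/M genes (15 of 24), beside -0.17 for all tested genes, of which 43.5% were above 0. The S median was 0.03 without niche metastatic replicate 2 and 0.14 without replicate 3. The groups did not overlap for 5 members higher and 1 lower, against 5.63% and 7.11% of all genes. The test called 0 of 46 members, against 0.00776% of all genes, and 8 had an unadjusted p under 0.05, against 12.7%. DESeq2 called 5 of 46 members, Rrm2, Cdc45, E2f1, Kif23 and Mybl2, against 7.41% of all genes. In the same comparison all 10 macrophage markers had a log2 fold change below 0 (median -1.16, sums of 677 to 1340 against 1510 to 2290 CPM, 0 called), and the Vcam1 ranges given above did not overlap. Of the tested B and plasma cell markers 6 of 7 were below 0 (median -2.28, 0 called), as were 6 of 7 T and NK cell markers (median -2.32, 0 called) and 6 of 7 stem and progenitor markers (median -1.11, 0 called). The sums of these 3 lists overlapped (404 to 1380 against 928 to 1220, 153 to 352 against 164 to 459 and 186 to 260 against 209 to 385 CPM), while the B cell genes Ms4a1 (33.3 to 148 against 313 to 373), Pax5 (22.3 to 62.1 against 113 to 318) and Ebf1 (0.404 to 42.1 against 96.8 to 184 CPM) did not. Granulocyte precursor markers were above 0 for 8 of 10 (median 0.32, 0 called), and erythroid markers for 8 of 11 (median 0.44, 0 called). Their sums overlapped as well (8140 to 9570 against 6940 to 8850 and 750 to 2050 against 962 to 1380 CPM). The part of all these markers in the members' values was not tested. The difference between the metastasis effects of both sorts was tested by itself and gave 0 of 46 members, against 0.00% of all genes in edgeR, where 6 members and 7.89% of all genes had an unadjusted p under 0.05. DESeq2 called 2 of 46 members for it, Cdc45 and E2f1, against 3.18% of all genes. The 4 group contrasts share libraries, so their values are given side by side and not correlated.

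**Figure D3:**
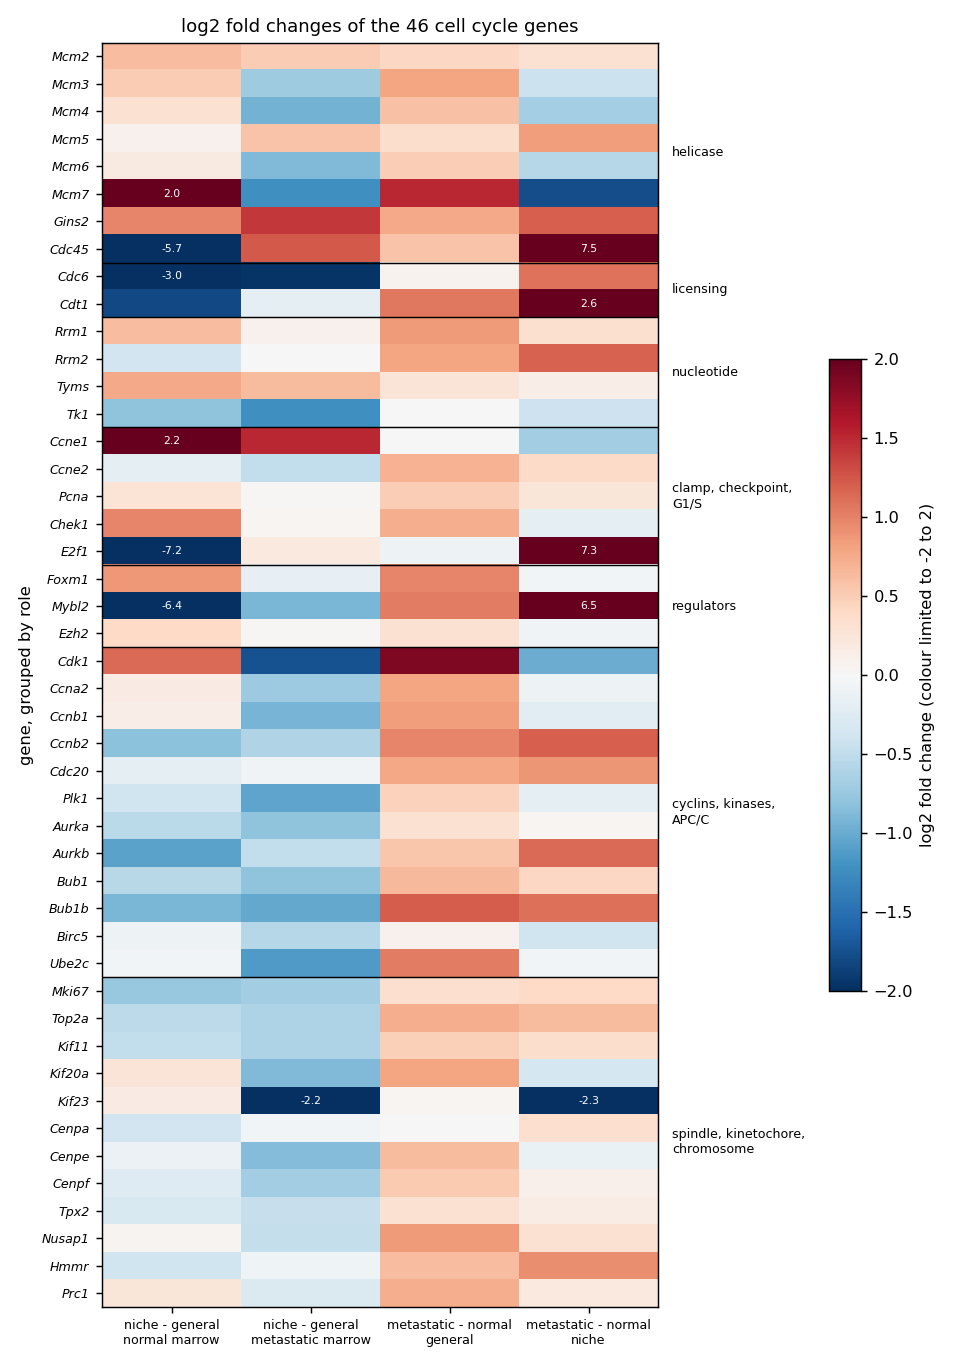
The log2 fold change (colour, limited to -2 to 2, larger values printed) of each of 46 genes (rows, by role) in 4 comparisons (columns). The column for metastatic minus normal in general macrophages is above 0 for 24 of 24 G2/M genes (22 of 24 with RLE scaling), and the column for niche minus general in metastatic marrow is below 0 for 24 of 24 (23 of 24 with RLE scaling).

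The 8 genes of the replicative helicase (Mcm2 to Mcm7, and Gins2 and Cdc45, which complete the active helicase) summed to 339 to 398 CPM in general normal, 505 to 562 in general metastatic, 471 to 484 in niche normal and 498 to 692 in niche metastatic libraries. All 8 had a log2 fold change above 0 with metastasis in general macrophages, against 49.4% of all genes, with a median of 0.58. In niche macrophages 4 of 8 were above 0, against 43.5% of all genes, with a median of -0.06. Mcm5 (chr8:75109569-75128439), the most abundant of them, was at 104, 142 and 132 CPM in general normal and 198, 136 and 145 CPM in general metastatic libraries. It stood at 165, 113 and 119 CPM in niche normal and 212, 340 and 161 CPM in niche metastatic libraries. These groups overlapped within each sort, and its log2 fold change with metastasis was 0.35 ± 0.34 (SE) in general and 0.84 ± 0.35 in niche macrophages, with adjusted p of 1.0 and 0.381.

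Cdc45 (chr16:18780447-18811987) was at 4 counts or fewer in 4 libraries. It had 4, 3 and 4 counts in niche normal libraries, and 1046, 984 and 702 counts in niche metastatic libraries. In general macrophages it had 403, 4 and 143 counts in normal and 401, 450 and 471 counts in metastatic marrow. General normal replicate 2 was thus as low as the niche normal libraries. Per library size, Cdc45 was 186 times higher in niche metastatic than in niche normal libraries (95% interval 104 to 374, counting error only), yet with the spread between libraries the adjusted p was 0.208. Exons of Cdc45 overlap those of Ufd1 on the other strand by 209 bases, and the strandedness of the counting is not given in the sources used here. The licensing factors Cdc6 and Cdt1, which load MCM at origins, had a summed level of 0.487 to 15.5 CPM in niche normal and 3.50 to 62.4 CPM in general normal libraries. In metastatic marrow it was 7.37 to 44.0 CPM in niche and 33.2 to 57.0 CPM in general libraries, and these ranges overlapped those of normal marrow.

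Among the 4 genes of nucleotide supply, both subunits of ribonucleotide reductase were the most abundant. Rrm2 (chr12:24708241-24714146), its small and cell cycle regulated subunit, was at 227, 190 and 215 CPM in general normal and 338, 463 and 291 CPM in general metastatic libraries. In niche macrophages it was at 142, 242 and 99.2 CPM in normal and 278, 354 and 462 CPM in metastatic marrow. All metastatic libraries of either sort were above all normal libraries. The log2 fold change was 0.79 ± 0.32 in general macrophages (adjusted p = 0.944) and 1.18 ± 0.33 in niche macrophages (adjusted p = 0.263), and neither passed. Without niche normal library B the niche value was 1.59 and passed (adjusted p = 0.0406).

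Rrm1 (chr7:102441695-102469771), the large subunit, was at 168, 270 and 187 CPM in general normal and 476, 373 and 279 CPM in general metastatic libraries, with no overlap. In niche macrophages it was at 347, 232 and 381 CPM in normal and 244, 586 and 370 CPM in metastatic marrow, with overlap. Its log2 fold change with metastasis was 0.85 ± 0.33 in general macrophages, with an adjusted p of 0.944.

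E2f1 (chr2:154559407-154569892, minus strand), a transcription activator of S phase genes, was the member that passed the test. It had 1, 5 and 3 counts in niche normal libraries A, B and C, and 688, 261 and 285 counts in general normal libraries. In metastatic marrow it had 406, 854 and 661 counts in niche and 526, 661 and 624 counts in general libraries. The niche normal libraries stood apart below all 9 others. E2f1 fell by 7.25 ± 1.56 on the log2 scale in niche against general macrophages of normal marrow (adjusted p = 0.0140). That fitted value rests on counts near 0 in 1 group; per library size, the general level was 140 times the niche level (95% interval 73.3 to 306, counting error only).

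The E2f1 call was lost with limma-voom (adjusted p = 0.102), with a fit to both groups alone (adjusted p = 0.138) and without general normal replicate 1 (adjusted p = 0.0699). Between niche metastatic and niche normal libraries the log2 fold change was 7.34 ± 1.56 with an adjusted p of 0.133, and DESeq2 gave an adjusted p of 2.52e-10. In metastatic marrow the sorts overlapped (log2 fold change 0.19 ± 1.17, adjusted p = 1.0). The share of tested genes at or under 3 counts was 24.4% to 33.1% in niche normal and 17.8% to 25.2% in general normal libraries, and its part in the E2f1 value was not tested.

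Pcna (chr2:132249162-132253314), the sliding clamp of DNA polymerase, was at 157, 147 and 246 CPM in general normal and 260, 289 and 223 CPM in general metastatic libraries. It was at 164, 218 and 284 CPM in niche normal and 184, 414 and 186 CPM in niche metastatic libraries. All 4 groups overlapped at least 1 other group, and its log2 fold changes lay between 0.02 and 0.49, with adjusted p of 0.768 or more. The pseudogene Pcna-ps2 has a row of its own in the table, so reads shared with it could have been split. Ccne1 (chr7:38097984-38107534), the cyclin that activates CDK2 at the start of S phase, was at or under 3 counts in 6 of 12 libraries. Its highest value was 26.1 CPM, in niche normal library C, and no contrast had an adjusted p under 0.773.

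Of the regulators, Mybl2, the B-Myb subunit that joins MuvB, was uneven between replicates. It had 1, 422 and 0 counts in general normal, 660, 257 and 423 in general metastatic, 1, 2 and 2 in niche normal and 2, 450 and 201 in niche metastatic libraries. Only the general metastatic group had it in all 3 libraries, and its value in general normal marrow rests on replicate 2. Foxm1 and Ezh2 were found in every library, with log2 fold changes between -0.17 and 0.97 over the 4 group contrasts.

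The 12 genes of cyclins, mitotic kinases, checkpoint proteins and the anaphase-promoting complex (APC/C) summed to 1010 to 1070 CPM in general normal and 1590 to 2030 CPM in general metastatic libraries. In niche macrophages they summed to 954 to 1090 CPM in normal and 900 to 1250 CPM in metastatic marrow. The general metastatic libraries were above all 9 others. Ube2c (chr2:164769898-164778822), the ubiquitin-conjugating enzyme of the APC/C, had the smallest p in 2 comparisons. It was at 110, 138 and 93.0 CPM in general normal, 202, 250 and 238 in general metastatic, 120, 89.9 and 117 in niche normal and 120, 102 and 93.7 CPM in niche metastatic libraries. The general metastatic group was alone above the rest.

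The log2 fold change of Ube2c was 1.02 ± 0.33 with metastasis in general macrophages (adjusted p = 0.944), -0.05 ± 0.33 in niche macrophages, and -1.13 ± 0.33 between niche and general macrophages of metastatic marrow (adjusted p = 0.202). The difference between both metastasis effects was -1.07 ± 0.46 (adjusted p = 0.614). Exons of Ube2c overlap Tnnc2 on the other strand by 592 bases.

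Ccnb1 (chr13:100778650-100786570), the cyclin B1 partner of CDK1, followed a like order: 116, 126 and 139 CPM in general normal, 221, 259 and 200 in general metastatic, 178, 105 and 134 in niche normal and 109, 116 and 130 CPM in niche metastatic libraries. Its log2 fold change was 0.84 ± 0.32 with metastasis in general macrophages (adjusted p = 0.944) and -0.93 ± 0.32 between niche and general macrophages of metastatic marrow (adjusted p = 0.390). Ccnb1-ps has a row of its own, so reads could have been split between both.

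Ccna2 (chr3:36564865-36572150), cyclin A2, which acts in S phase and G2, was at 436, 530 and 441 CPM in general normal and 984, 933 and 522 CPM in general metastatic libraries. It was at 583, 619 and 372 CPM in niche normal and 390, 654 and 422 CPM in niche metastatic libraries. Metastatic replicate 3 of the general sort lay within the normal range, so the groups overlapped (log2 fold change 0.79 ± 0.28, adjusted p = 0.944). Cdk1 (chr10:69335146-69352938), the kinase that starts mitosis, was at 20.1, 18.4 and 19.8 CPM in general normal and 57.4, 48.3 and 108 CPM in general metastatic libraries. It was at 69.8, 0.398 and 58.0 CPM in niche normal and 23.4, 11.2 and 29.4 CPM in niche metastatic libraries. Both general groups were apart, and niche normal library B was far below A and C.

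Bub1b (chr2:118598211-118641591), the BubR1 protein of the spindle checkpoint, was at 96.0, 75.2 and 108 CPM in general normal, 228, 257 and 160 in general metastatic, 30.9, 41.8 and 75.6 in niche normal and 104, 140 and 75.1 CPM in niche metastatic libraries. The general metastatic libraries were above all others. Its log2 fold change with metastasis was 1.21 ± 0.42 in general macrophages (adjusted p = 0.944) and 1.10 ± 0.42 in niche macrophages (adjusted p = 0.381).

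Among the 12 genes of the spindle, kinetochore and chromosomes, Mki67 (chr7:135689784-135716361), which encodes the proliferation marker Ki-67, had the highest CPM of all members. It was at 821, 698 and 702 CPM in general normal and 777, 686 and 1330 CPM in general metastatic libraries. In niche macrophages it was at 321, 474 and 516 CPM in normal and 477, 574 and 682 CPM in metastatic marrow. Every niche library lay below every general library. The log2 fold change of niche against general macrophages was -0.76 ± 0.27 in normal marrow (adjusted p = 0.172) and -0.69 ± 0.27 in metastatic marrow (adjusted p = 0.487). DESeq2 called the difference in normal marrow, and edgeR did not.

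Top2a (chr11:98992943-99024189), the topoisomerase that untangles sister chromatids, was at 456, 460 and 585 CPM in general normal and 884, 789 and 816 CPM in general metastatic libraries. It was at 434, 281 and 331 CPM in niche normal and 544, 655 and 417 CPM in niche metastatic libraries. The general metastatic libraries were the highest, and the niche normal libraries lay below the general normal ones. Its log2 fold change with metastasis was 0.73 ± 0.24 in general (adjusted p = 0.944) and 0.63 ± 0.24 in niche macrophages (adjusted p = 0.381).

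Kif11 (chr19:37376403-37421859), the motor that pushes the spindle poles apart, was at 468, 360 and 393 CPM in general normal, 594, 625 and 474 in general metastatic, 242, 245 and 375 in niche normal and 361, 397 and 342 CPM in niche metastatic libraries. In metastatic marrow its niche libraries were all below the general ones (log2 fold change -0.62 ± 0.25, adjusted p = 0.511).

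Kif23 (chr9:61915905-61946774), a kinesin of the central spindle in cytokinesis, was lowest in niche metastatic libraries. It was at 72.5, 86.4 and 52.5 CPM in general normal, 69.2, 76.1 and 72.3 in general metastatic and 85.7, 74.7 and 77.1 CPM in niche normal libraries. In niche metastatic libraries it was at 3.48, 20.8 and 24.1 CPM, below all 9 others. Its log2 fold change was -2.29 ± 0.66 with metastasis in niche macrophages (adjusted p = 0.305) and -2.17 ± 0.66 between niche and general macrophages of metastatic marrow (adjusted p = 0.232). DESeq2 called both, and edgeR called neither. It was the 1 member whose niche metastatic libraries lay below the niche normal ones without overlap.

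**Figure D4:**
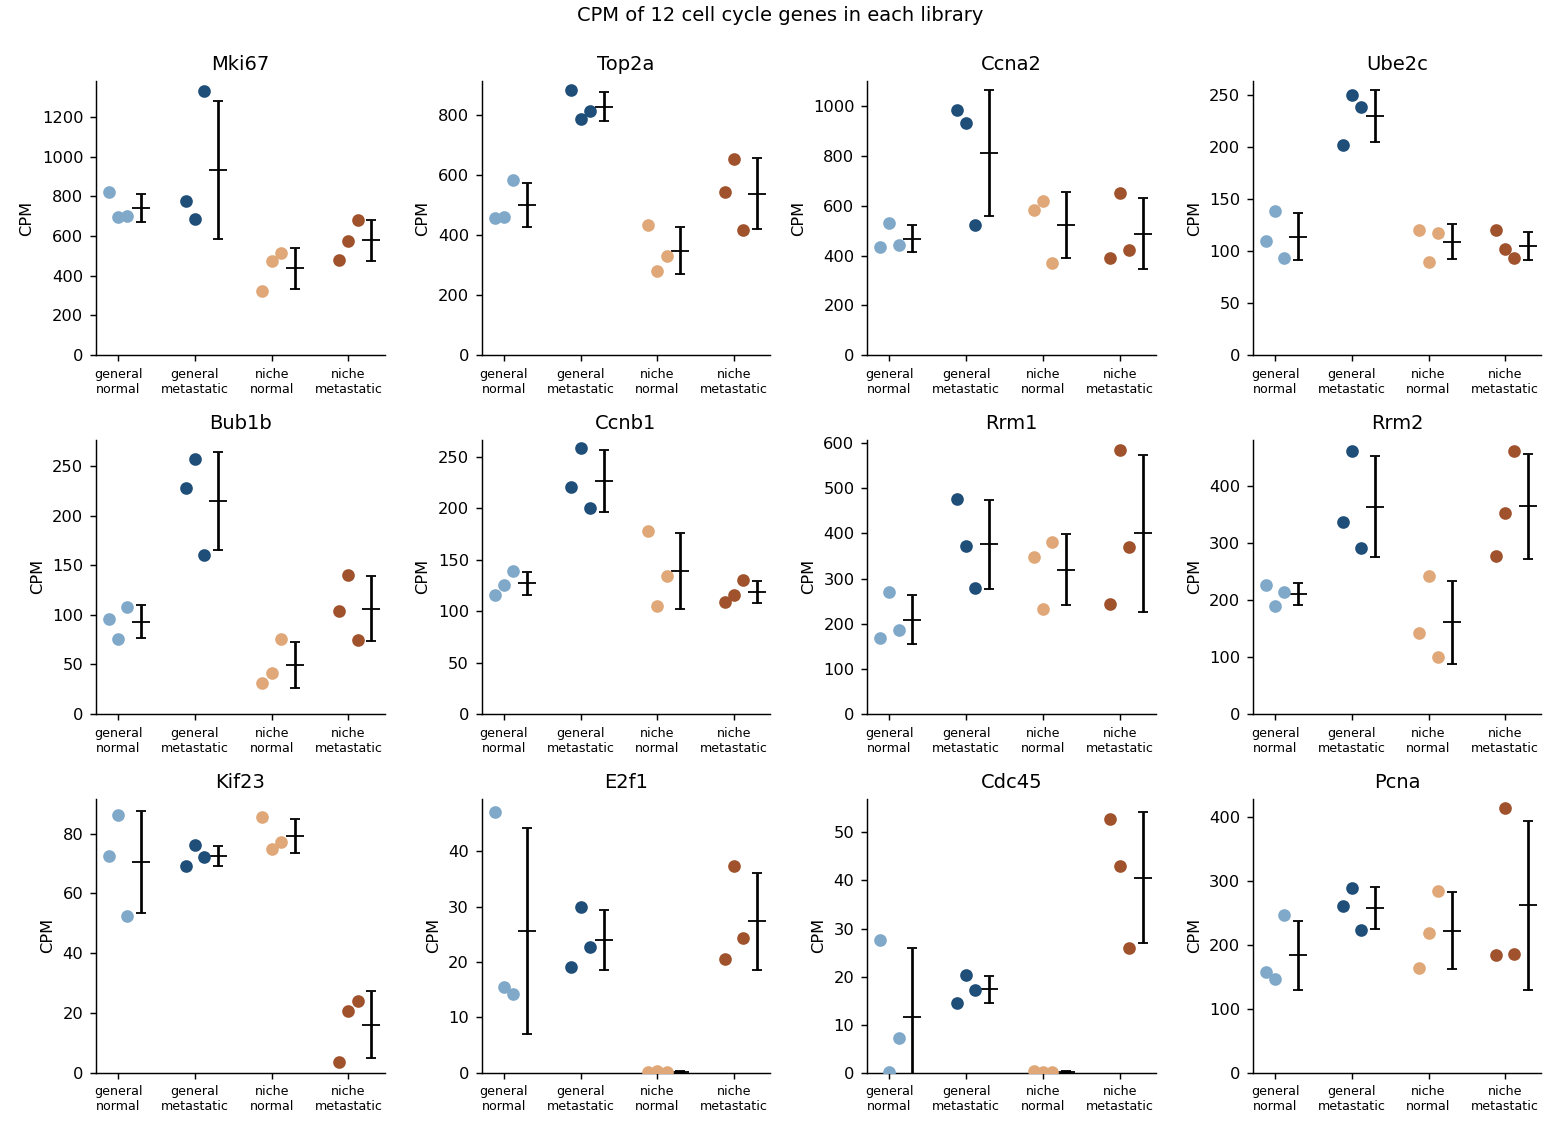
CPM (vertical axes, from 0) of 12 members in each of 12 libraries, with the mean and SD of each group of 3 beside the points; SD bars are drawn no lower than 0. Ube2c, Bub1b and Top2a are highest in general metastatic libraries, Kif23 is lowest in niche metastatic libraries, and E2f1 and Cdc45 are near 0 in niche normal libraries.

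Other genes of the cycle were taken from 3 lists with 90 genes, of which 87 were tested. The 38 other G2/M genes had a median log2 fold change of 0.51 with metastasis in general macrophages, with 34 of 38 above 0 against 49.4% of all genes. Between niche and general macrophages of metastatic marrow their median was -0.38, with 6 of 38 above 0 against 51.8% of all genes. With edgeR 0 of them passed in either comparison, against 0.0155% and 0.831% of all genes, and 0 and 1 had an unadjusted p under 0.05, against 5.12% and 8.60%. With metastasis in niche macrophages the same genes had a median of 0.60, with 29 of 38 above 0 against 43.5% of all genes, 0 called and 4 at an unadjusted p under 0.05 against 12.7%. That median was 0.38 without niche metastatic replicate 2 or without niche normal library A. The difference between both metastasis effects had a median of 0.12 for them, with 21 of 38 above 0, beside -0.35 for the 24 G2/M members, and was -0.05 and -0.21 without the same libraries. Of 28 other S phase genes, 12 were above 0 with metastasis in niche macrophages (median -0.08, beside 0.31 for the S members). Their median difference of effects was -0.32, beside -0.25 for the S members. Between niche and general macrophages of normal marrow the other G2/M genes had a median of -0.41, with 13 of 38 above 0 against 56.0% of all genes. The groups did not overlap for 7 of these 38, all lower in niche macrophages. Of all 12882 genes, 1131 were lower and 1291 higher without overlap. Of the 38, 0 were called, against 2.47% of all genes, and 2 had an unadjusted p under 0.05, against 19.0%. The 28 other S phase genes had a median of 0.36 there, with 17 above 0, against 56.0% of all genes. Without overlap 4 were higher and 0 lower, against 1291 and 1131 of all 12882 genes. Of the 28, 0 were called and 4 had an unadjusted p under 0.05, against 2.47% and 19.0% of all genes. With 1 library left out, chosen as a check after these medians were seen, the other G2/M median was -0.56 to -0.24, and the other S phase median was -0.05 without niche normal library B, 0.14 without library C and 0.36 to 0.56 with all libraries or any other left out. Of the 28 other S phase genes, 22 were above 0 with metastasis in general macrophages (median 0.55), against the same 49.4%, where 0 passed and 1 had an unadjusted p under 0.05, against 0.0155% and 5.12% of all genes. The gene with that p was Orc1, the largest subunit of the origin recognition complex, with 0, 1 and 0 counts in general normal and 150, 111 and 101 counts in general metastatic libraries (adjusted p = 0.944).

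The calls lay among the 21 tested G1 cyclins, kinases and inhibitors, 5 of which passed between niche and general macrophages of normal marrow, against 2.47% of all genes. Ccnd2, a D-type cyclin that drives entry into the cycle, was at 386, 607 and 392 CPM in niche normal and 43.3, 38.8 and 40.5 CPM in general normal libraries. It rose by 3.50 ± 0.37 on the log2 scale (adjusted p = 1.37e-05), and in metastatic marrow by 2.04 ± 0.35 (adjusted p = 0.00344). Ccnd3, another D-type cyclin, was at 31.3, 35.5 and 37.8 CPM in niche normal and 202, 136 and 133 CPM in general normal libraries, and fell by 2.17 ± 0.42 (adjusted p = 0.00628). So 2 cyclins of the same family differed in opposite directions.

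Cdk6, the kinase partner of D-type cyclins, rose by 1.42 ± 0.27 (adjusted p = 0.00549), from 462, 409 and 280 CPM in general to 1000, 691 and 1380 CPM in niche libraries. E2f2, an activator of the same family as E2f1, was at 48.5, 31.2 and 18.2 CPM in niche normal and 194, 111 and 116 CPM in general normal libraries and fell by 2.10 ± 0.43 (adjusted p = 0.00984). Ccnd1 rose by 6.14 ± 1.44 (adjusted p = 0.0254), from 9, 12 and 15 counts to 940, 408 and 1034 counts, and that call was lost without any 1 of the general normal libraries or without niche normal library A (adjusted p of 0.0721 to 0.107). Without general normal replicate 1 the calls of Ccnd3 (adjusted p = 0.0542) and E2f2 (adjusted p = 0.0864) were lost as well, and limma-voom lost those of Ccnd1, Ccnd3 and E2f2 (adjusted p of 0.0503, 0.274 and 0.183). The fit to both groups alone lost those of Cdk6, E2f2 and Ccnd1 (adjusted p of 0.0554, 0.0985 and 0.0993), and the call of Ccnd2 held in each of these settings. Exons of Ccnd1, Ccnd2, Ccnd3 and Cdk6 overlap genes on the other strand. With metastasis in general macrophages, 18 of the 21 genes were above 0 (median 0.40), against 49.4% of all genes. There Ccnd1 had 285, 94 and 129 counts against 9, 12 and 15 (log2 fold change 3.21, adjusted p = 0.944 in edgeR). DESeq2 called it (adjusted p = 0.036), as it did 1.09% of all genes. In niche macrophages, E2f2 was at 142, 121 and 109 CPM with metastasis, above all 3 normal libraries (log2 fold change 1.93 ± 0.43, adjusted p = 0.149), and Cdc25b, a phosphatase that activates CDK1, was below them (-1.41 ± 0.42, adjusted p = 0.328). DESeq2 called both (adjusted p of 0.00205 for E2f2 and 0.0281 for Cdc25b), as it did 7.41% of all genes, and edgeR called neither.

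**Figure D5:**
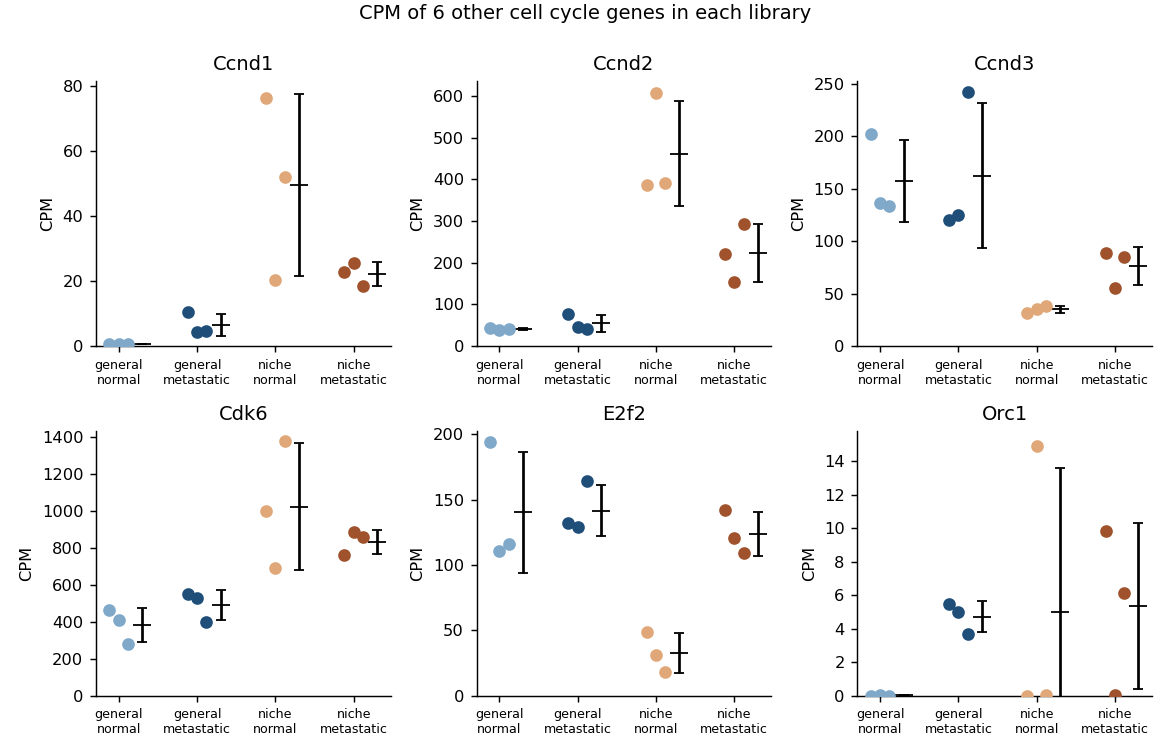
CPM (vertical axes, from 0) of Ccnd1, Ccnd2, Ccnd3, Cdk6, E2f2 and Orc1 in each of 12 libraries, with the mean and SD of each group of 3 beside the points; SD bars are drawn no lower than 0. Ccnd2 and Cdk6 are higher in niche than in general libraries, and Ccnd3 and E2f2 are lowest in niche normal libraries.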

How the data were processed

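RNA-seq was analysed in 12 libraries of sorted mouse marrow macrophages, 3 per group. The authors deposited a table of expected counts, of which 73.9% were whole numbers. The submitters' processing notes name mm10, STAR 2.7.3a, Partek, DESeq2 1.40.2 and R 4.3.1, without role; the counter, annotation and strandedness are not given in the sources used here. Counts were rounded, filtered with filterByExpr and scaled by TMM, and edgeR 4.0.16 (R 4.3.3) quasi-likelihood tests were fitted to 4 group means over all libraries, with Benjamini-Hochberg adjustment over 12882 genes at 0.05. CPM used TMM-scaled library sizes. SE is the log2 fold change over the root of F. Intervals cover counting error only. Columns of niche normal libraries carry other numbers than their titles, so they pair with none. Alternatives were DESeq2 1.42.0, limma-voom (limma 3.58.1), RLE scaling, other filters, fewer libraries and a replicate block. The fitting code was run on simulated data with less spread than these data, which does not measure its accuracy here. Replicates differed by 143 to 416 chi-square per degree of freedom, so each was counted once. Gene positions and exon overlaps come from GENCODE M21 (GRCm38, the assembly of mm10), and promoters from RefSeq. Values in every library are given for the 4 most abundant members of each set, members called, the 3 of smallest p per comparison, and Mki67, Top2a, Pcna, Cdk1, E2f1 and Ccne1; Mybl2 and Mcm7 were added after their values were seen. Promoters are shown for the 2 most abundant members of each set with an entry. The members and lists were chosen with earlier results of these data known.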

Additional observations from a re-analysis of the deposited data

How the results depend on the processing

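The common biological coefficient of variation was 1.3, low members were at or near 0 in single libraries, and the effect of depth on the calls was not tested. DESeq2 called 4, 2, 0, 5 and 2 members for niche minus general in normal and in metastatic marrow, metastatic minus normal in general and in niche macrophages, and the difference of both metastasis effects, and 1825, 480, 141, 954 and 410 of all genes. limma-voom called 0 and 2 members in the first 2 comparisons, and 186, 178, 23 and 11 of all genes in the first 4; it moved the median of all genes from 0.19 to -0.20 and from 0.04 to -0.15 in the first 2, and the G2/M median to -0.45 for niche minus general in normal marrow and to 0.34 for metastasis in niche macrophages. A minimum of 10 counts in every library left 28 members without E2f1, called 0 members for niche minus general in normal marrow with a G2/M median of -0.45, and gave 3 genes and a G2/M median of 0.41 for metastasis in niche macrophages. With only the compared groups, 0 members and 163 genes were called for niche minus general in normal marrow and 0 genes for metastasis in niche macrophages, and no such fit was run for the difference of effects. Without a filter, 5 and 3 genes were called for metastasis in general and niche macrophages. RLE scaling called 0 genes for metastasis in niche macrophages, and leaving out haemoglobin, immunoglobulin, mitochondrial and small RNA genes called 2. Plain library sizes gave mean sums of 1080 (S, general normal), 5205 (G2/M, general metastatic) and 3851 CPM (G2/M, niche metastatic). The cause of these changes was not tested.

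Leaving out 1 library gave, for niche minus general in normal marrow, 0 to 2 members, 176 to 402 genes and a G2/M median of -0.38 to 0.02; the log2 fold change of Mybl2, -6.39 with all libraries, lay between -6.96 and 1.39, the latter without general normal replicate 2. It gave 66 to 83 genes and an S median of -0.24 to 0.21 for niche minus general in metastatic marrow, and 0 genes for metastasis in general macrophages. For metastasis in niche macrophages it gave 0 to 2 members (Rrm2 and Aurkb, without library B), 0 to 66 genes, an S median of 0.03 to 0.46 and a G2/M median of 0.20 to 0.54, and for the difference of effects 0 to 16 genes and a G2/M median of -0.55 to -0.14. Correlations of same-numbered libraries were -0.007 to 0.034, with 5 of 9 highest with their own number. Between general and niche libraries of metastatic marrow they were 0.004, 0.031 and 0.032, against -0.033 to 0.006 for other numbers. The remaining correlations set metastatic against normal mice, so the check cannot decide whether replicate numbers pair the sorts. A replicate block was possible for 2 comparisons and called 0 members in both, with 119 genes for niche minus general in metastatic marrow and 3 for metastasis in general macrophages. The sets by order of the member list gave medians close to those reported, such as -0.66 for G2/M genes in niche minus general of metastatic marrow.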
